A study of Mus musculus with 8 samples.

Results

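9 genes of the calmodulin pathway were followed in the testes of Iqch mutant and wild-type mice. They are 2 calmodulin genes (Calm2, Calm3), 3 calmodulin-dependent kinases (Camk4, Camk2g, Camk2d), 2 catalytic subunits of calcineurin (Ppp3cc, Ppp3ca) and its 2 regulatory subunits (Ppp3r2, Ppp3r1). They were chosen by name and matched through their Ensembl identifiers, and all 9 were present among the 17127 genes of the deposited table. RNA was taken from whole testes of adult males aged 4 months, and libraries were compared between wild-type mice and mice homozygous for a deletion in exon 19 of Iqch made with CRISPR/Cas9 in B6CBAF1 zygotes. The labels name the genotypes WT and Iqch-/- and do not say which of the mutant lines of the study a library came from, while the study names the mu7 line where it describes the RNA-seq coverage of Iqch. There were 4 wild-type libraries (1 to 4) and 3 mutant libraries (1, 2 and 4). A library labelled mutant 3 was not analysed here, and the study states that it set 1 mutant aside as an outlier. The labels name no other allele and no treatment in either group.

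Calmodulin is a small calcium sensor. When calcium rises it binds calcium ions and then docks onto target proteins, among them the calmodulin-dependent kinases, which add phosphate groups, and calcineurin, a phosphatase that removes them. Calmodulin also binds IQ motifs, the short helices for which Iqch is named. Calcineurin is a pair of a catalytic A subunit and a regulatory B subunit, and the testis has its own pair, PPP3CC with PPP3R2, which is found in sperm and is needed for the sperm midpiece to become flexible and for male fertility. PPP3CA and PPP3R1 are the forms of most somatic tissues. Camk4 encodes a kinase that is abundant in neurons, T cells and male germ cells, and Camk2g and Camk2d encode broadly expressed subunits of calmodulin kinase II.

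Values are CPM, the share of a library's reads that fell on a gene, scaled so that a library sums to 1e+06. Each was log2-transformed after adding 0.1, and the groups were compared with limma over 17126 genes. A gene was called higher or lower at a false discovery rate (FDR) below 0.01. Fold changes are of mutant over wild type on this log2 scale, and errors of CPM are SDs within a group (n = 4 wild type, n = 3 mutant). If the smallest step of a library is taken as 1 read, the wild-type libraries held 32859673 to 37551057 reads assigned to genes. On this basis the mutant libraries held 32064384 to 34806129 such reads. The value of a member in a library then rested on 259 to 20785 reads. Iqch itself stood at 217, 206, 216 and 193 CPM in wild-type libraries 1 to 4 and at 67.7, 64.8 and 69.2 CPM in mutants 1, 2 and 4, a log2 fold change of -1.63 (SE 0.05, FDR 1.9e-10), in the direction of the labels. Many genes differed between the groups: 50.4% of those tested were called, 36.3% as higher and 14.2% as lower. The median log2 fold change over all genes was 0.121. Division of the CPM by median-of-ratios size factors brought that median to -0.013, so calls and list counts that changed with this scaling are given after it as well.

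The pairs within the families are separate genes with separate sequences. Calm2 (ENSMUSG00000036438, chr17:87740829-87754363, minus strand) and Calm3 (ENSMUSG00000019370, chr7:16649290-16658156, minus strand) both code for 149 amino acids, and their coding sequences are 82.7% identical. Ppp3r2 (ENSMUSG00000028310, chr4:49678747-49682385, minus strand) has 2 exons and lies within the span of Grin3a on the same strand, and Ppp3r1 (ENSMUSG00000033953, chr11:17109192-17150382, plus strand) has 6. Coordinates are those of GRCm39 with GENCODE release M39. The first 30 coding bases of both pairs are shown, from the start codon in 5′ to 3′ direction, because they let the members of a pair be told apart base by base. Capitals mark the bases that differ within the pair, 3 in the calmodulin pair and 8 in the calcineurin B pair.
Calm2: atggctgaccaActgactgaAgaGcagatt
Calm3: atggctgaccaGctgactgaGgaAcagatt
Ppp3r2: atgggaaatgaggcCagCtaccAAACTgaG
Ppp3r1: atgggaaatgaggcGagTtaccCTTTGgaA
All 4 stretches are coding exon. The Ppp3r2 stretch lies in a single exon at chr4:49681919-49681948. The other 3 cross an intron directly after the start codon, which lies at chr17:87754221-87754223 in Calm2, chr7:16657766-16657768 in Calm3 and chr11:17109540-17109542 in Ppp3r1. Their remaining bases lie at chr17:87750128-87750154, chr7:16653564-16653590 and chr11:17132107-17132133, respectively. The longest run of identical coding bases is 17 in the calmodulin pair and 20 in the calcineurin B pair.

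Against wild type, 3 of the 9 genes were higher in Iqch mutant testes, 2 were lower and 4 were not called, so 5 of 9 were called where 50.4% of all genes were. The 3 higher genes were Camk2d, Ppp3r1 and Camk2g, and the 2 lower genes were Camk4 and Ppp3r2. The mutant and wild-type libraries did not overlap in 6 of the 9 genes, against 62.3% of all genes. They were higher in 3 of these genes and lower in 3, against 42.8% and 19.5% of all genes. The median log2 fold change of the 9 was -0.09, below the 0.121 of all genes. After size factors 8 of the 9 were called, with 3 higher and 5 lower, against 52.1% of all genes, 27% higher and 25.1% lower. The libraries are of whole testes, in which fewer cells of a type and less RNA per cell cannot be told apart.

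**Figure D1:**
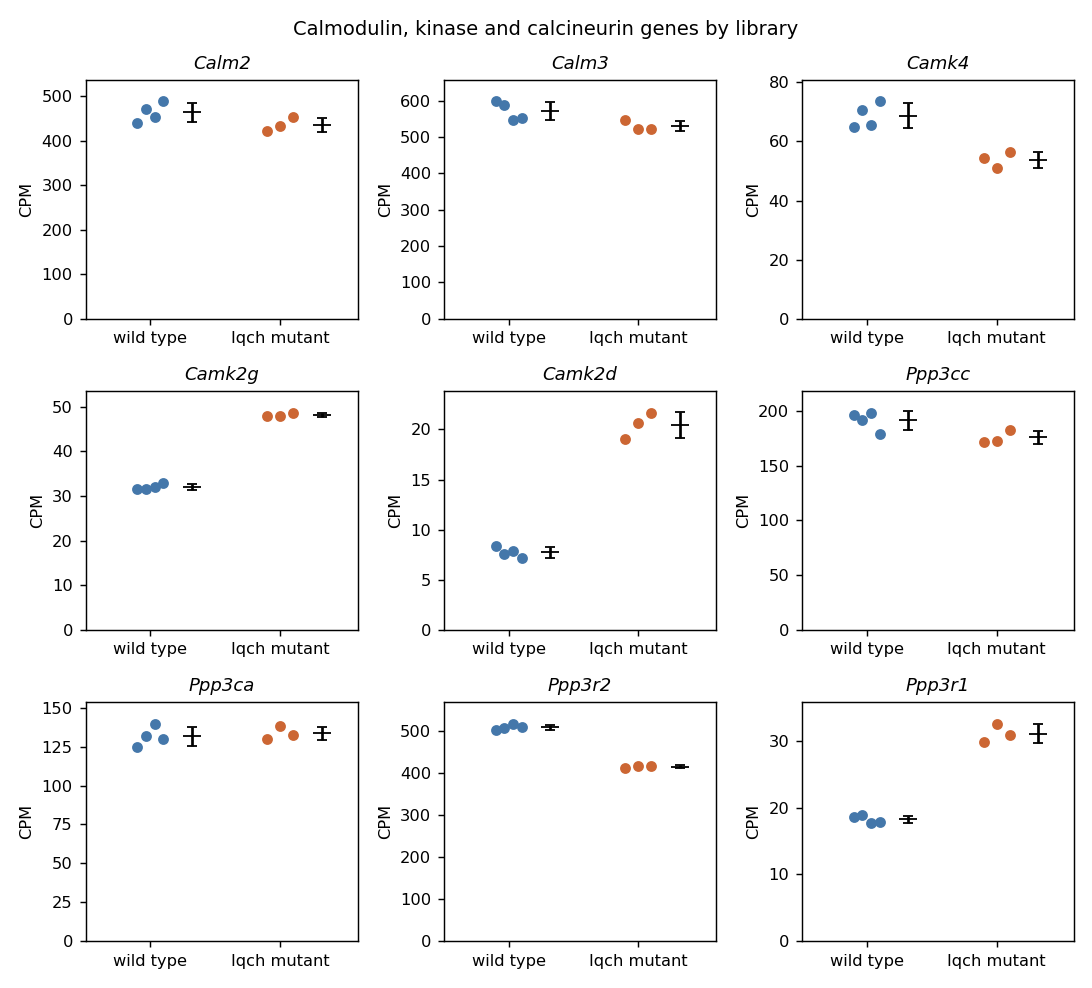
CPM of the 9 genes in each library, 1 panel per gene, with wild-type libraries in blue, mutant libraries in orange and the group mean as a dash with its SD; each axis starts at 0. The mutant points of Camk2g, Camk2d and Ppp3r1 all lie above the wild-type points, those of Camk4, Ppp3r2 and Calm3 all lie below, and those of Calm2, Ppp3cc and Ppp3ca overlap.

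The calmodulin genes were the most abundant of the 9 per kilobase of exon and had the smallest differences among those whose mean was lower in mutants. Calm2 stood at 440, 471, 454 and 488 CPM in wild-type libraries 1 to 4 and at 421, 433 and 452 CPM in mutants 1, 2 and 4. These ranges overlap, and the log2 fold change was -0.09 (SE 0.04, FDR 0.098), with a 95% interval from -0.18 to 0.01. Calm3 stood at 598, 588, 548 and 554 CPM in the wild type and at 547, 523 and 522 CPM in the mutants. Here every mutant library was below every wild-type library, although the highest mutant library (547.4 CPM) and the lowest wild-type library (547.6 CPM) all but met. The log2 fold change of -0.11 (SE 0.04, FDR 0.042, 95% interval from -0.20 to -0.02) did not pass the threshold. After size factors both genes were called lower, at -0.22 (FDR 0.00082) for Calm2 and -0.24 (FDR 0.00069) for Calm3. Both genes thus gave similar values and changed their call with the scaling in the same way. Processed copies of Calm2 in the table, Gm7308 (96.9% identical over 447 bp) and Gm15720 (98.2% over 276 bp), were named after their values were seen. They were not called on the deposited CPM, with 28.8 ± 3.25 CPM in the wild type and 25.1 ± 1.75 CPM in the mutants for Gm15720 (log2 fold change -0.19, FDR 0.064). Like Calm2, Gm15720 was called lower after size factors (-0.33, FDR 0.0038). Gm7308 stood at 14.4 ± 1.27 CPM in the wild type and 15.8 ± 3.46 CPM in the mutants (log2 fold change 0.11, FDR 0.44). It was not called after size factors either (-0.02, FDR 0.88). Reads shared with these copies make the level of Calm2 uncertain.

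Among the kinases, Camk4 was lower in mutant testes and both calmodulin kinase II genes were higher. Camk4 (ENSMUSG00000038128, chr18:33067984-33328821, plus strand) stood at 64.9, 70.8, 65.4 and 73.6 CPM in wild-type libraries 1 to 4 and at 54.4, 50.9 and 56.3 CPM in mutants 1, 2 and 4. The groups were well separated, and the log2 fold change was -0.35 (SE 0.06, FDR 0.00021), or -0.48 (FDR 1.6e-05) after size factors. In 9.0% of all genes the log2 fold change was lower than in Camk4. Exons of Camk4 overlap the antisense gene 2310026I22Rik, which was also named after its value was seen and stood at 3.28 CPM in the wild type and 2.65 CPM in the mutants (FDR 0.11).

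Camk2d (ENSMUSG00000053819, chr3:126389945-126639982, plus strand) had the largest change of the 9 genes, at 8.41, 7.54, 7.91 and 7.14 CPM in the wild type against 19.1, 20.6 and 21.7 CPM in the mutants. Each mutant library held more than double the CPM of any wild-type library, a 2.62-fold difference (log2 fold change 1.39, SE 0.09, FDR 4e-08). It was the only member called with a fold change above 2, which 8.79% of all genes passed in the higher direction. Camk2g (ENSMUSG00000021820, chr14:20784942-20844541, minus strand) stood at 31.6, 31.5, 32.1 and 32.8 CPM in the wild type and at 47.8, 47.8 and 48.7 CPM in the mutants. Libraries of 1 group hardly differed, and the log2 fold change was 0.59 (SE 0.05, FDR 5.9e-07). After size factors the values were 1.26 (FDR 9.5e-08) for Camk2d and 0.45 (FDR 6.1e-06) for Camk2g.

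The regulatory subunits of calcineurin moved in opposite directions. Ppp3r2, the B subunit of sperm calcineurin, stood at 503, 506, 517 and 509 CPM in wild-type libraries 1 to 4 and at 412, 417 and 416 CPM in mutants 1, 2 and 4. The spread within each group was small beside the gap between them, and the mutant level was 0.815-fold that of the wild type (log2 fold change -0.29, SE 0.03, FDR 9e-06). In 11.6% of all genes the log2 fold change was lower. Ppp3r1, the somatic B subunit, stood at 18.6, 18.8, 17.8 and 17.9 CPM in the wild type and at 29.9, 32.6 and 30.9 CPM in the mutants. It was 1.70-fold higher (log2 fold change 0.77, SE 0.06, FDR 3.9e-07), and 85.9% of all genes had a lower log2 fold change. Both calls and directions were the same after size factors, at -0.43 (FDR 8.4e-07) for Ppp3r2 and 0.63 (FDR 1.7e-06) for Ppp3r1. Ppp3r1 overlaps Dnaaf10 on the same strand, so that reads of their shared exons could be counted for either gene or for neither. Dnaaf10 stood at 16.9 ± 1.61 CPM in the wild type and 18.4 ± 0.620 CPM in the mutants (log2 fold change 0.12, FDR 0.21), and was not called.

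The catalytic subunits were not called on the deposited CPM. Ppp3cc (ENSMUSG00000022092, chr14:70454485-70526989, minus strand), the A subunit of sperm calcineurin, stood at 196, 192, 199 and 179 CPM in wild-type libraries 1 to 4 and at 172, 173 and 183 CPM in mutants 1, 2 and 4. Wild type 4 lay below mutant 4, so the groups overlapped, and the log2 fold change was -0.12 (SE 0.05, FDR 0.033, 95% interval from -0.22 to -0.02). Without wild type 4 it was -0.15 and passed the threshold (FDR 0.0067), and after size factors it was -0.26 (FDR 0.00039). Ppp3ca (ENSMUSG00000028161, chr3:136375445-136643491, plus strand), a somatic A subunit, stood at 124.9, 132, 140 and 130 CPM in the wild type and at 130, 138 and 132 CPM in the mutants. The mutant libraries lay inside the range of the wild type, with a log2 fold change of 0.02 (SE 0.05, FDR 0.72, 95% interval from -0.08 to 0.12). Its sign turned after size factors (-0.11, FDR 0.047), again without a call. Ppp3cc overlaps the antisense gene Gm49417 over 940 exonic bp, and Gm49417 was higher in mutants on the deposited CPM, at 7.33 ± 0.322 against 5.23 ± 0.624 CPM (log2 fold change 0.49, FDR 0.0025). It was not called after size factors (0.35, FDR 0.016) or without mutant 1 (FDR 0.013). The strand setting of the counting is not given in the sources used here, so reads of the shared bases could belong to either gene, and Gm49417 was named after its value was seen.

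**Figure D2:**
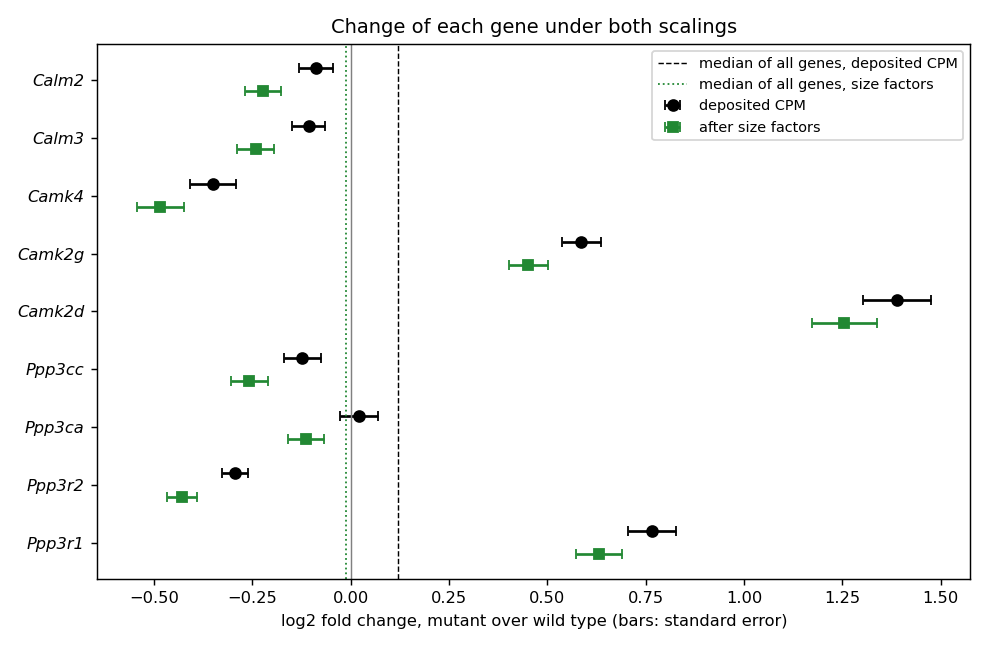
Log2 fold change of mutant over wild type (horizontal axis) for each gene, with the standard error as a bar, from the deposited CPM (circles) and after size factors (squares); vertical lines mark the medians of all genes, 0.121 and -0.013. Camk2g, Camk2d and Ppp3r1 lie right of 0 and Camk4 and Ppp3r2 left of it under both scalings, and Ppp3ca changes sign.

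A ratio of 2 genes within a library hardly depends on how the library was scaled, and was used to set the sperm form of calcineurin against the somatic form. It is given as the difference of their log2(CPM + 0.1) values, and groups were compared by a two-sided exact permutation test over the 35 ways to divide 7 libraries into 4 and 3. The smallest p this design allows is 0.029, and it becomes 0.057 with Benjamini-Hochberg adjustment over the 4 ratios computed when 2 ratios reach it. The threshold set for the ratios was 0.05.

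The B subunits showed the clearest shift. The log2 ratio of Ppp3r2 to Ppp3r1 was 4.75, 4.74, 4.86 and 4.82 in wild-type libraries 1 to 4 and 3.78, 3.67 and 3.75 in mutants 1, 2 and 4. All 3 mutants lay below all 4 wild-type libraries, with means of 4.79 ± 0.06 and 3.73 ± 0.05 and a ratio in mutants 0.479-fold that of the wild type. The exact permutation p was 0.029, the smallest possible, 0.057 with doubling of the smaller tail, and 0.057 after adjustment. Ppp3r2 was lower and Ppp3r1 higher in the mutants, each without overlap. Their ratio therefore had to separate the groups, and its p is no support beyond the gene results. For the A subunits, the log2 ratio of Ppp3cc to Ppp3ca was 0.65, 0.54, 0.51 and 0.46 in the wild type and 0.40, 0.32 and 0.46 in the mutants. Mutant 4 lay just above wild type 4, and the ratio in mutants was 0.905-fold that of the wild type (exact permutation p = 0.086, adjusted p = 0.11). For the B subunits the sperm to somatic ratio was thus lower in all mutant libraries, but its adjusted p did not pass the threshold. For the A subunits it was not separated with Ppp3ca as the somatic form. No ratio was computed with Ppp3cb, another catalytic subunit. Ppp3cb was higher in mutants on the deposited CPM (log2 fold change 0.34, FDR 0.00052) and was not called after size factors.

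The same was done for the kinases and for the calmodulins. The log2 ratio of Camk4 to Camk2g was 1.03, 1.17, 1.02 and 1.16 in wild-type libraries 1 to 4 and 0.18, 0.09 and 0.21 in mutants 1, 2 and 4. No library of 1 group lay within the range of the other, and the ratio in mutants was 0.523-fold that of the wild type (exact permutation p = 0.029, the smallest possible, adjusted p = 0.057). Camk4 and Camk2g were themselves separated in opposite directions, so this ratio had to separate too and adds no support. The log2 ratio of Calm2 to Calm3 was -0.44, -0.32, -0.27 and -0.18 in the wild type and -0.38, -0.27 and -0.21 in the mutants. The means were -0.30 ± 0.11 and -0.29 ± 0.09, and 29 of the 35 divisions gave a difference at least as large (exact permutation p = 0.83).

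**Figure D3:**
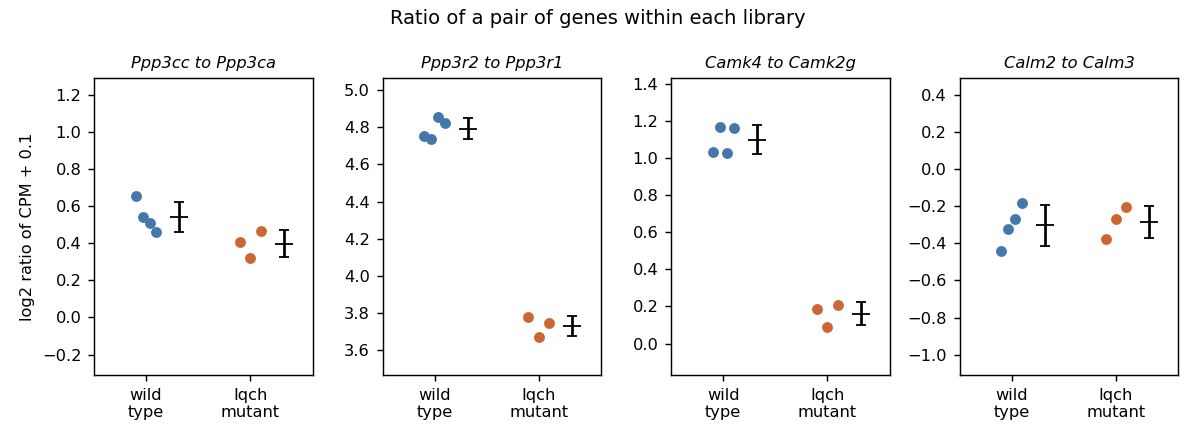
Log2 ratio of CPM within each library for the 4 pairs of genes (vertical axes of equal span, not starting at 0), with wild-type libraries in blue, mutant libraries in orange and the group mean as a dash with its SD. The mutants lie below the wild type for Ppp3r2 to Ppp3r1 and for Camk4 to Camk2g, overlap slightly for Ppp3cc to Ppp3ca and overlap fully for Calm2 to Calm3.

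Levels of different genes were compared per length, as CPM per kilobase of the merged exons of all annotated transcripts. In the wild type the order was Calm2 (313 ± 14.0), Calm3 (220 ± 9.60), Ppp3r2 (150 ± 1.77), Ppp3cc (38.9 ± 1.74), Ppp3ca (11.8 ± 0.554), Ppp3r1 (5.37 ± 0.155), Camk4 (5.06 ± 0.310), Camk2g (3.42) and Camk2d (0.290), all in CPM per kilobase. Ppp3r1 and Camk4 were the only neighbours in this order whose wild-type libraries overlapped, from 5.22 to 5.54 and from 4.78 to 5.42 CPM per kilobase. In the mutants Camk2g (5.14) stood above Camk4 (3.96), in the reverse of their wild-type order, but with canonical transcript lengths Camk4 stayed above Camk2g in the mutants (18.25 against 13.02 CPM per kilobase). On this scale sperm Ppp3r2 exceeded somatic Ppp3r1 28.0 ± 1.09 times in the wild type and 13.4 ± 0.499 times in the mutants. Sperm Ppp3cc exceeded Ppp3ca 3.31 ± 0.189 times in the wild type and 2.99 ± 0.148 times in the mutants. The sperm forms of both subunits were thus the more abundant transcripts in both genotypes. Lengths of the canonical transcripts were a choice made after the values were seen. They moved Ppp3ca to 26.7, Camk4 to 23.3, Camk2g to 8.66 and Ppp3r1 to 6.22 CPM per kilobase in the wild type. The order of Ppp3r1, Camk4 and Camk2g therefore depends on which exons are counted. Ppp3ca stayed above these genes and Camk2d below them.

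Other genes of the pathway were taken from 8 lists with 67 genes in all, of which 56 were in the table. Of these, 28 were higher in mutants, 10 were lower and 18 were not called, with a median log2 fold change of 0.26. After size factors 21 were higher, 13 lower and 22 not called. These counts include Rcan2, Pnck, Camkk1 and Mylk3, which met the minimum for testing only in the group where they are high. Counts for each list below are read against the 36.3% higher and 14.2% lower of all genes. Those after size factors are read against 27% higher and 25.1% lower. As with the 9 genes, the lists were drawn up with earlier results of these data known.

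**Figure D4:**
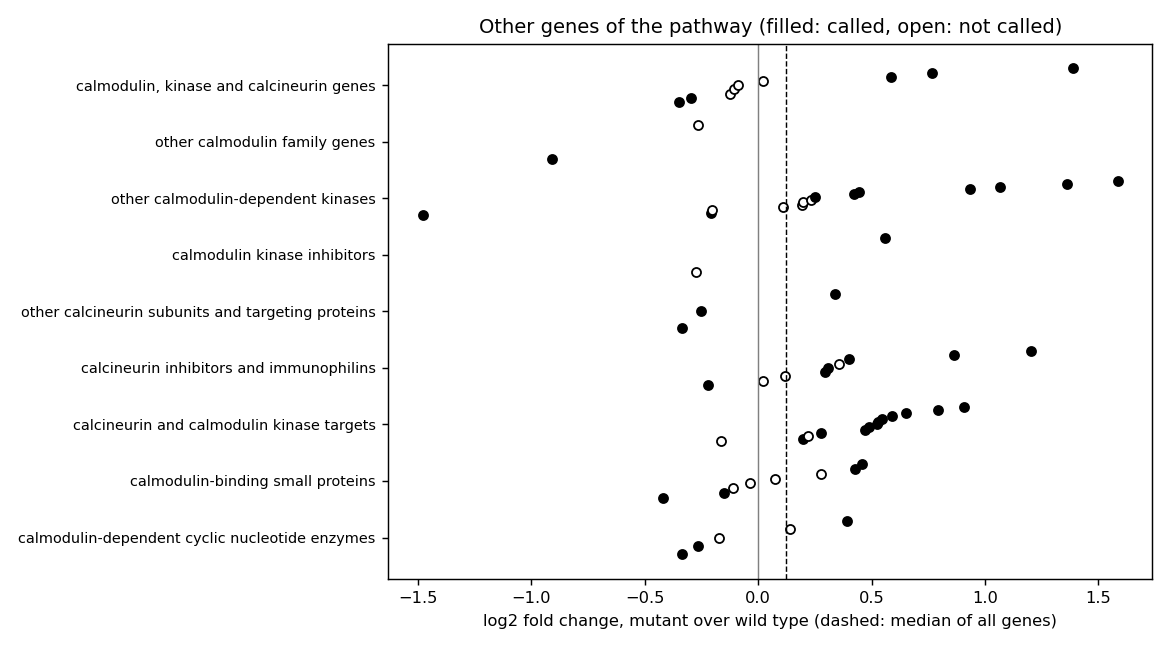
Log2 fold change of mutant over wild type on the deposited CPM (horizontal axis) for the 9 genes (top row) and each gene of the 8 pathway lists, 1 row per list, with called genes filled and the median of all genes dashed; height within a row only spreads the points. The list of targets lies furthest to the right, with a median of 0.53, and the calmodulin family and the calcineurin subunits and targeting proteins have medians of -0.59 and -0.25.

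Spata33 and Akap1, listed as proteins that place calcineurin in the cell, were lower, as was Ppp3r2. Whether these genes change together was not tested. Of the 3 genes of other subunits and targeting proteins, 1 was higher and 2 were lower, and after size factors 0 and 2. Spata33, whose protein tethers calcineurin to sperm mitochondria, stood at 424, 416, 400 and 407 CPM in wild-type libraries 1 to 4 and at 335, 320 and 323 CPM in mutants 1, 2 and 4. This gap exceeded the spread in both groups (log2 fold change -0.34, SE 0.04, FDR 7.5e-06). Akap1, an anchoring protein of the mitochondrial outer membrane, fell from 793 ± 17.8 to 666 ± 43.0 CPM (log2 fold change -0.25, FDR 0.00031). Ppp3cb, the third catalytic subunit, stood at 27.4, 30.2, 31.4 and 29.6 CPM in the wild type and at 35.4, 39.5 and 37.8 CPM in the mutants (log2 fold change 0.34, SE 0.06, FDR 0.00052). It lost its call after size factors (0.21, FDR 0.01).

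Of 9 inhibitors of calcineurin, related calcium-binding proteins and immunophilins, 5 were higher and 1 was lower, and after size factors 3 and 1. Immunophilins are the binding proteins of the drugs that block calcineurin. Rcan2, a regulator that binds the catalytic subunit, rose from 2.02 to 4.80 CPM (log2 fold change 1.20, FDR 1.1e-05). It met the minimum of 2.2 CPM for testing in the mutants alone. Its place among the tested genes, and in the counts of this list, thus rests on the group where it is high. Chp1, a calcineurin B homologue, rose from 25.2 ± 1.06 to 45.9 ± 2.83 CPM (log2 fold change 0.86, FDR 1.5e-07). Rcan3 stood at 5.18 ± 0.582 and 6.85 ± 0.483 CPM (log2 fold change 0.40, FDR 0.0086), and this call was lost after size factors (0.27) and in 6 of the 7 fits that left out a library, each except that without wild type 4. Cib1, a calcium-binding protein needed for sperm formation, was the lower gene, at 152 CPM in the wild type and 130 CPM in the mutants (log2 fold change -0.22, FDR 0.00062).

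Of 13 targets of calcineurin and the kinases, mostly transcription factors and their coactivators, 11 were higher and 0 lower, and after size factors 9 were higher and 1 lower. Mef2c rose from 5.14 to 9.77 CPM (log2 fold change 0.91, FDR 0.00033). Nfatc2, an NFAT factor that enters the nucleus once calcineurin has acted on it, showed a log2 fold change of 0.79 (FDR 0.00032). Mef2d rose from 24.4 ± 1.12 to 38.3 ± 1.15 CPM (log2 fold change 0.65, FDR 1.1e-06).

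Of 14 other calmodulin-dependent kinases, 7 were higher and 2 lower, and after size factors 6 and 2. The largest rises were those of Pnck, a kinase of the calmodulin kinase I family (1.30 to 4.08 CPM, FDR 4.2e-06), Dapk1, a death-associated kinase (2.13 to 5.63 CPM, FDR 7e-06) and Camkk1, which acts upstream of Camk4 (1.97 to 4.24 CPM, FDR 4.6e-05). The 2 lower genes were Mylk3, a myosin light chain kinase, from 2.49 ± 0.261 to 0.837 ± 0.180 CPM (FDR 2.4e-05), and Phkg2, a catalytic subunit of phosphorylase kinase, from 548 ± 15.1 to 475 ± 25.2 CPM (log2 fold change -0.21, FDR 0.0011). Pnck and Camkk1 met the minimum for testing in the mutants alone, and Mylk3 in the wild type alone. Their place among the tested genes, and in the counts of this list, thus rests on the group where they are high. Of the 2 inhibitors of calmodulin kinase II, Camk2n1 rose from 69.5 ± 3.37 to 103 ± 14.9 CPM (log2 fold change 0.56, FDR 7e-05), in the same direction as Camk2g and Camk2d. The other, Camk2n2, stood at 13.2 CPM in the wild type and 10.9 CPM in the mutants and was not called (log2 fold change -0.27, FDR 0.039), but it was called lower after size factors (-0.41, FDR 0.0053).

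Of the 2 other calmodulin family genes in the table, Calml4 was lower, from 5.88 ± 0.553 to 3.10 ± 0.473 CPM (log2 fold change -0.91, FDR 7.4e-05). Of 8 further proteins that bind calmodulin or carry calmodulin-binding regions, 2 were higher and 2 lower, and after size factors 2 and 3. The higher ones were the transcription activators Camta1 (26.2 to 36.0 CPM, log2 fold change 0.46, FDR 7.1e-05) and Camta2 (20.7 to 27.9 CPM, log2 fold change 0.43, FDR 5e-05). The lower ones were Nrgn, which holds calmodulin through an IQ motif (15.0 ± 0.591 to 11.2 ± 0.577 CPM, FDR 0.00035), and Camsap1, which binds microtubule ends (428 ± 12.2 to 386 ± 9.34 CPM, log2 fold change -0.15, FDR 0.0045). The call of Camsap1 was lost in 5 of the 7 fits that left out a library, all but those without wild type 4 and without mutant 1. Of 5 calmodulin-dependent enzymes of cyclic nucleotides, the phosphodiesterases Pde1a (178 ± 7.08 to 141 ± 3.89 CPM, log2 fold change -0.34, FDR 2.6e-05) and Pde1c (215 ± 11.2 to 179 ± 4.53 CPM, log2 fold change -0.26, FDR 0.00031) were lower. Pde1b was higher on the deposited CPM (6.46 ± 0.418 to 8.49 ± 0.184 CPM, log2 fold change 0.39, FDR 0.0029) and was not called after size factors (0.26), where 0 genes of this list were higher and 2 lower, nor without mutant 1 or without mutant 4.

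Many markers of testis cell types also differed between the groups. Their counts, here and in the next paragraph, are read against the 36.3% higher and 14.2% lower of all genes. Those after size factors are read against 27% higher and 25.1% lower. On the deposited CPM the spermatocyte, endothelial and peritubular myoid counts lay near or below the shares of all genes. Among markers of elongated spermatids, 10 of 10 were lower, and their summed level ran from 30100 to 31627 CPM in wild-type libraries and from 19876 to 22429 CPM in mutants. Among markers of round spermatids, 5 of 8 were lower and 0 higher, and the sums ran from 1316 to 1424 CPM and from 1158 to 1247 CPM. Spermatocyte markers summed to 2120 to 2242 CPM and 1901 to 1978 CPM, with 1 of 10 higher and 1 lower. Camk4 and Ppp3r2 were the members called lower in the mutant libraries, while Calm2, Calm3, Ppp3cc and Ppp3ca were not called on the deposited CPM.

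Markers of Sertoli cells, Leydig cells and macrophages were higher, as were Camk2g, Camk2d and Ppp3r1. Of the Sertoli cell markers 11 of 11 were higher (1536 to 1657 CPM in the wild type and 3166 to 3337 CPM in the mutants), of the Leydig cell markers 8 of 9 (1108 to 1325 and 4492 to 4654 CPM), of the macrophage markers 9 of 9 (94.8 to 105 and 293 to 332 CPM) and of the endothelial markers 2 of 5 (30.6 to 34.5 and 44.0 to 46.4 CPM). Spermatogonial markers had 5 of 8 higher (151 to 164 and 204 to 235 CPM), and peritubular myoid markers had 1 of 5 higher and 1 lower (346 to 419 and 286 to 326 CPM). After size factors 1 of 8 spermatogonial, 8 of 11 Sertoli, 8 of 9 Leydig and 9 of 9 macrophage markers were higher, 4 of 10 spermatocyte markers and 8 of 8 round spermatid markers were lower, and the endothelial list had 2 genes higher and 1 lower. No marker in the table was at 0 in any library, and 4 listed markers (Nanos3, Fshr, Tagln and Esam) were not analysed here. The part of these markers in the changes of the 9 genes was not tested.

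**Figure D5:**
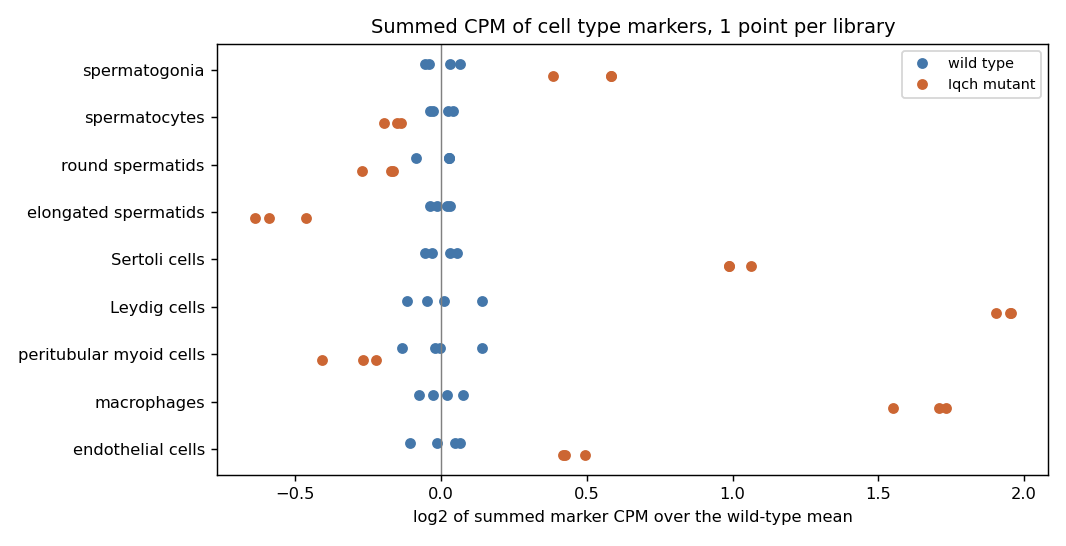
Summed CPM of the marker list of each testis cell type in each library, as log2 over the wild-type mean of that list (horizontal axis), with wild-type libraries in blue and mutant libraries in orange. Mutant points lie below the wild type for spermatocyte, spermatid and peritubular myoid lists and above it for spermatogonia, Sertoli, Leydig, macrophage and endothelial lists.

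Genes with profiles most like those of 4 members were sought over the 7 libraries, by the root-mean-square difference of log2(CPM + 0.1) after centring each gene on its mean. For Ppp3r2 they were Morn4 (0.0129), Luzp1 (0.0190) and Cimip6 (0.0207), and for Ppp3cc they were Cfap206 (0.0158), Zswim3 (0.0170) and Rsbn1 (0.0177). For Camk4 they were Ttll10 (0.0355), Nsun4 (0.0379) and Gdpd1 (0.0382), and for Camk2g they were Jade1 (0.0251), Uso1 (0.0271) and Ranbp10 (0.0277). These distances describe 7 libraries of 2 genotypes, in which any genes with the same difference between the groups lie close together.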

How the data were processed

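Whole-testis RNA (TruSeq libraries, 125 bp paired-end reads) was sequenced by the authors, trimmed with Trimmomatic, mapped to GRCm39 with Subread and assigned to genes with featureCounts. Genes stayed in the table where 2 samples of a group or more reached 75 reads. The authors deposited CPM values, in which no between-sample factor was found. The authors made their own calls with edgeR and DESeq2, which are not used here. The strand setting and annotation release are not given in the sources used here.

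The groups were compared on log2(CPM + 0.1) with limma 3.58.1 under R 4.3.3, using moderated statistics with a mean trend. Genes entered the fit where 2 libraries of a group or more reached 2.2 CPM, with Benjamini-Hochberg adjustment over all 17126 tested genes and a threshold of 0.01. The scale understates changes of low genes. The fit was first tested on simulated data in which no genes changed, or few did, equally in both directions. Changes as many and as uneven in direction as those of these data were not simulated. Ratios were compared by exact permutation, counted in Python 3.11.15 with NumPy 2.4.6. Positions, lengths and coding sequences came from GENCODE M39, and near-identical copies were sought with BLAST 2.17.0.

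The 9 genes and all lists were chosen with earlier results of these data known. Named from the pathway lists were called genes, at most the 3 largest changes in each direction. Profiles most alike were limited to the 3 nearest genes for each of 4 members. Dnaaf10, 2310026I22Rik, Camk2n2, Gm49417, Gm7308 and Gm15720 were named outside these rules. Alternatives were other pseudocounts and minimums, median-of-ratios size factors, blocking on the replicate number, each library left out in turn and, chosen after the data were seen, canonical transcript lengths. A gene of the pathway lists is not reported here and was left out of their counts.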

Additional observations from a re-analysis of the deposited data

Results flagged for a closer look

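Over the 9 genes, Iqch, the named genes of the pathway lists and the 4 ratios, which make 38 groups of 4 wild-type libraries, the gap between the outermost library and the next was tested against the range of the group with Dixon's criterion, which chance passes in about 1 of 20 groups. It was passed by 2. Rcan3, a regulator of calcineurin, had 6.05 CPM in wild type 4, while the remaining wild-type libraries ran from 4.81 to 4.99 CPM. Camta1, a calmodulin-binding transcription activator, had 24.3 CPM in wild type 2, while the remaining ones ran from 26.6 to 27.0 CPM. The groups of 3 mutant libraries were not tested.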

How the results depend on the processing

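Size factors moved Calm2 to -0.22, Calm3 to -0.24 and Ppp3cc to -0.26, all past the threshold, and turned Ppp3ca to -0.11, which was not called, so 8 of the 9 genes were called. Ppp3cb, Rcan3 and Pde1b lost their call. Camk4, Camk2g, Camk2d, Ppp3r2, Ppp3r1 and Iqch kept their call and direction in every alternative run. Leaving out each library in turn gave 5 to 6 called genes of the 9 and -0.15 to -0.11 for Ppp3cc, which passed the threshold without wild type 4. It gave -0.0043 to 0.050 for Ppp3ca, whose sign turned without wild type 1 and without mutant 2. Over the whole table it gave 7237 to 8503 called genes. Pseudocounts of 1 or 0.01, no minimum and a minimum of 5 CPM changed the call or direction of none of the 9 genes, Iqch, the ratios or the list genes named by rule, where still tested, and the whole table gave 8702, 8623, 8639 and 7834 called genes in turn.

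Replicate numbers did not pair the libraries, since deviations of same-numbered libraries correlated at 0.026, 0.0094 and -0.098 across genes. With the number as a block, in which wild type 3 has no partner, 7722 genes were called and the same number of members (5). Rcan3, Camsap1 and Pde1b lost their call. As paired differences the log2 ratios differed by -1.04 for Ppp3r2 to Ppp3r1, -0.16 for Ppp3cc to Ppp3ca, -0.96 for Camk4 to Camk2g and 0.03 for Calm2 to Calm3.

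Canonical transcript lengths, chosen after the data were seen, moved 8 of the 9 levels per kilobase, to 65.5 for Ppp3cc and 1.05 for Camk2d among others. The planned edgeR test was not run, because the table holds too few low values to settle that its steps are whole reads. With 4 and 3 libraries, differences as small as those of Calm2, Calm3 and Ppp3cc lie near the threshold.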
